A study of Mus musculus with 2 samples.

Results

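Cohesin is a ring-shaped protein complex, and the 10 genes described here encode its subunits, the proteins that load, hold and release it, and its boundary factor CTCF. They were chosen by name, as Smc1a, Smc3, Rad21, Stag1, Stag2, Nipbl, Wapl, Pds5a, Pds5b and Ctcf, and all 10 were found among the 51826 genes of the table. The cells were mouse embryonic stem (ES) cells of the v6.5 line, which are pluripotent, and total RNA gave 2 libraries: 1 wild-type, and 1 labelled T29I, a mutation in the trypsinogen gene PRSS1. Both carry the same strain label, NBA1-19349, and the labels give no clone, passage or culture condition. With 1 library per group nothing is replicated, so "lower" and "higher" describe these libraries and no test was possible. Genotype cannot be told apart from clone, culture or library preparation.

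In dividing cells the Smc1a, Smc3 and Rad21 proteins close into a ring that entraps DNA, and a STAG protein (Stag1 or Stag2) binds to it. Nipbl, with its partner Mau2, loads the ring and drives its movement along DNA, which extrudes loops. Wapl, aided by the Pds5 proteins, opens the ring again, and CTCF bound to its DNA sites stops extrusion and so sets the borders of chromatin domains. The same ring holds sister chromatids together until anaphase, and in ES cells cohesin, Nipbl and CTCF are known for their part in the looping of enhancers to pluripotency genes.

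Genome positions are those of GENCODE M21 on GRCm38, and all 10 genes are protein-coding. The ring genes are Smc1a (ENSMUSG00000041133, chromosome X, 152016428 to 152062694, + strand), Smc3 (ENSMUSG00000024974, chromosome 19, 53600398 to 53645833, + strand) and Rad21 (ENSMUSG00000022314, chromosome 15, 51962240 to 51991747, - strand). Stag1 (ENSMUSG00000037286) lies on chromosome 9 from 100597798 to 100959375, + strand, and Stag2 (ENSMUSG00000025862) on chromosome X from 42149317 to 42277185, + strand. Nipbl (ENSMUSG00000022141) is on chromosome 15 from 8290617 to 8444463, - strand, and Wapl (ENSMUSG00000041408) on chromosome 14 from 34673928 to 34747983, + strand. Pds5a (ENSMUSG00000029202) and Pds5b (ENSMUSG00000034021) are far apart on chromosome 5, from 65605721 to 65698273 on the - strand and from 150673739 to 150810690 on the + strand. Ctcf (ENSMUSG00000005698) is on chromosome 8 from 105636568 to 105682922, + strand. Their transcripts are long and poor in GC: the longest annotated one ranges from 3782 bases (Ctcf) to 9423 bases (Nipbl), with a GC content from 38.1% (Stag2) to 46.9% (Smc1a).

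Promoter windows, from 250 bases before to 50 bases after the start, were held for 7 of the 10 genes in the RefSeq table of the GRCm38.p6 build. Rad21, Stag2 and Nipbl had no entry. The windows of the ring pair Smc1a and Smc3 and of Ctcf, which were much lower in the T29I library, are shown with that of Wapl, which was less so. They are those at chrX:152016178-152016477 (Smc1a, + strand), chr19:53600146-53600445 (Smc3, + strand), chr8:105636288-105636587 (Ctcf, + strand) and chr14:34673678-34673977 (Wapl, + strand). Capitals mark matches, on either strand, to the motifs searched. The motif of Sp1 and its relatives, the GC box, was searched as GGGCGG, and that of the factor NF-Y, the CCAAT box, by the letters of its name. For ETS factors the letters were CCGGAAG, for the core of the NRF1 motif they were GCATGCG, and for the core of the E2F motif they were TTGGCGC. For the core of the YY1 motif the letters were AAGATGG, for the TATA box they were TATAAA, and for the core of the CTCF motif they were AGGGGGC. On the reverse strand the CCAAT box can overlap the E2F letters.
Smc1a: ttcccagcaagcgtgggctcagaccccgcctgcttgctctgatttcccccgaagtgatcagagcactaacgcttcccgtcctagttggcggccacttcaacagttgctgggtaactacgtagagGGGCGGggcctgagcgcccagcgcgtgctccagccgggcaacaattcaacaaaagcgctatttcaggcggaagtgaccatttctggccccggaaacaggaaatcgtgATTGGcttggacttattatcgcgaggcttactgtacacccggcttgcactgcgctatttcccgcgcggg
Smc3: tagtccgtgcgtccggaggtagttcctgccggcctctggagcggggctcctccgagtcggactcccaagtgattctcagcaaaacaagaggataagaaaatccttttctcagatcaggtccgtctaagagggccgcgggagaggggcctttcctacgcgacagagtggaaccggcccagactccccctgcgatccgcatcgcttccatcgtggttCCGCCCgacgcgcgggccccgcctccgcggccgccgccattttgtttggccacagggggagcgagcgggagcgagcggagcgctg
Ctcf: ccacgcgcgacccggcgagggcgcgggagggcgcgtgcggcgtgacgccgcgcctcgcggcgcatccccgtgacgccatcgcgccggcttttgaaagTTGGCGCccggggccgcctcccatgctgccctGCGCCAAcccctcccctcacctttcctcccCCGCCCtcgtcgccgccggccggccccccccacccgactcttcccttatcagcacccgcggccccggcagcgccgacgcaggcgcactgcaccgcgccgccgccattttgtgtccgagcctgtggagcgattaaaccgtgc
Wapl: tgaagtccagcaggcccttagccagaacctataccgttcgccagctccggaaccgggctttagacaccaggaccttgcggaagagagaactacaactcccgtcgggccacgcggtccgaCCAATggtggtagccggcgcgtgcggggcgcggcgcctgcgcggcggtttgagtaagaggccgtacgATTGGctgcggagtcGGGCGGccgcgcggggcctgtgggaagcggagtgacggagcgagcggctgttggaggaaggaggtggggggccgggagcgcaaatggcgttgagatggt
The GC box was in all 7 windows, against 35.7% of the 32851 promoter windows in the table and 65.9% of the 9150 windows of genes that averaged 5 TPM or more. CCAAT was in 4 of the 7 (37.4% and 39.3%), and the E2F core in those of Ctcf, Pds5a and Pds5b (2.45% and 4.77%). The Ctcf window holds 2 E2F matches, at -153 and -121 from the start. Of the other motifs, the CTCF core was in 1 window, that of Pds5b (10.6% and 16.8%). In none of the 7 were the letters for ETS (8.86% and 19.99%), NRF1 (3.58% and 7.30%), YY1 (6.34% and 7.80%) or TATA (13.6% and 6.31%). All 7 windows had more CpG than the median window of the same 9150, at an observed-to-expected ratio from 0.903 (Smc1a) to 1.16 (Ctcf) against 0.782. The windows held, from those of Smc1a and Smc3 to that of Wapl, thus shared the GC box and a high CpG content. Nipbl and Stag2, the members that differed most and least, had no window, nor did Rad21. These matches are letters in a window, not sites.

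Levels are in TPM (transcripts-per-million), which counts reads per base of gene and scales each library to 1000000, and are given for the wild-type library first. Intervals are 95% exact Poisson intervals from estimated reads and cover counting error only. Every member was lower in the T29I library, as were 71.5% of the 12943 genes that averaged 1 TPM or more. As log2(TPM + 1), 9 of the 10 were at least 2-fold lower, against a background of 45.7% of the 12943 genes, and 0 were at least 2-fold higher, against 9.97%. The members' median log2 ratio was -2.89, against -0.84 over those genes. Summed over the 10 genes the level was 1107 and 197 TPM, 5.62-fold lower. In bulk RNA, fewer cells of a type and less RNA per cell cannot be told apart.

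**Figure D1:**
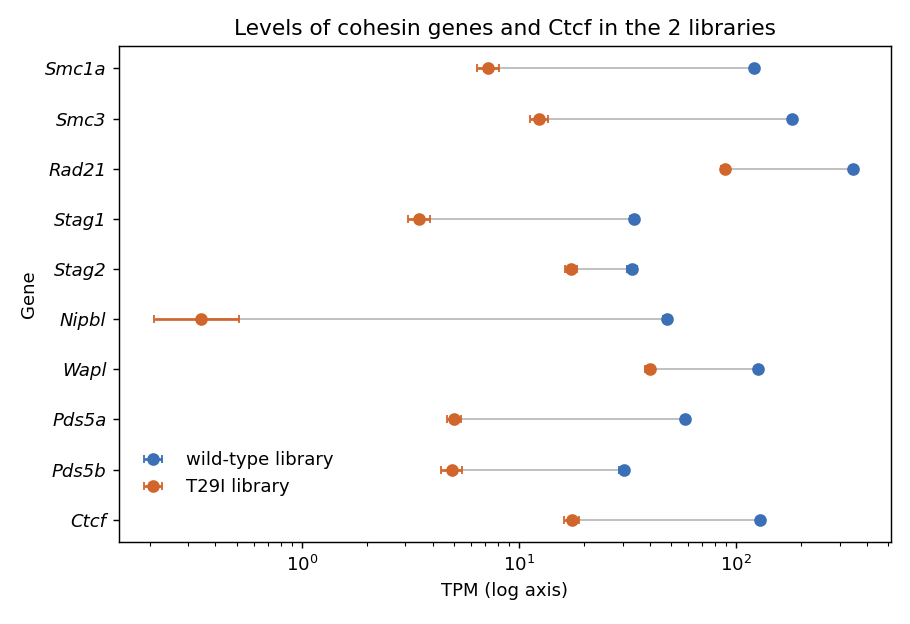
Level of each of the 10 genes in TPM (log axis) in the wild-type library (blue) and the T29I library (orange), with 95% exact Poisson intervals and 1 library per group. In every row the T29I point lies to the left of the wild-type point, by the widest margin for Nipbl (47.9 and 0.343 TPM) and the narrowest for Stag2 (33.3 and 17.3 TPM).

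Smc1a, an SMC ATPase of the ring, was at 121 TPM (117 to 125) in wild-type and 7.22 TPM (6.39 to 8.12) in T29I cells. This is 16.8-fold lower (counting interval 14.8 to 19.0). Smc3, the ATPase it pairs with, was at 180 TPM (175 to 185) and 12.4 TPM (11.3 to 13.6), or 14.5-fold lower (13.2 to 16.04). The SMC pair thus differed between the libraries by about the same factor, with overlapping counting intervals. Rad21, the kleisin that closes the ring and is cut by separase at anaphase, was at 347 TPM (339 to 355) and 88.6 TPM (85.1 to 92.1), or 3.91-fold lower (3.74 to 4.10). Rad21 was the most abundant of the 10 genes in each library, and its difference was smaller than that of its ring partners, beyond counting error.

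The STAG genes encode alternative subunits, of which a ring carries 1. Stag1 was at 33.9 TPM (32.5 to 35.4) and 3.47 TPM (3.07 to 3.91), or 9.80-fold lower (8.62 to 11.1). Stag2 was at 33.3 TPM (31.6 to 35.1) and 17.3 TPM (16.2 to 18.4), or 1.92-fold lower (1.77 to 2.09), and was the member that stayed within 2-fold. Ranked by TPM among all genes it was number 4419 in wild-type and 4378 in T29I cells, whereas Stag1 went from rank 4349 to 8553. The STAG genes were thus level with each other in the wild-type library only. Stag2 and Smc1a are both on the X chromosome, where the 302 genes averaging 5 TPM or more had a median log2 ratio of -1.17, and they were at -0.91 and -3.89.

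Nipbl, the loader, differed most. It was at 47.9 TPM (46.0 to 49.9) in the wild-type library and 0.343 TPM (0.209 to 0.516) in the T29I library, from an estimated 2343 and 21 reads. This is 139-fold lower (92.7 to 230), and only 0.193% of the 12943 genes had a lower log2 ratio. Wapl, which releases the ring, was at 126 TPM (123 to 130) and 40.1 TPM (38.3 to 42.0), or 3.15-fold lower (2.98 to 3.33). The releasing factor was therefore above the loader in each library, and by more in the T29I library.

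Pds5a and Pds5b encode a pair of ring-bound proteins that work with Wapl in release and also protect cohesion. Pds5a was at 58.0 TPM (56.5 to 59.5) and 5.01 TPM (4.64 to 5.42), or 11.6-fold lower (10.7 to 12.6). Pds5b was at 30.3 TPM (28.8 to 31.9) and 4.91 TPM (4.38 to 5.48), or 6.18-fold lower (5.47 to 6.99). Ctcf, the zinc finger protein that stops extrusion, was at 129 TPM (125 to 133) and 17.5 TPM (16.1 to 19.0), or 7.38-fold lower (6.74 to 8.08). Its rank among all genes went from 1259 to 4354.

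The order of the members also differed between the libraries. In the wild-type library it ran Rad21, Smc3, Ctcf, Wapl, Smc1a, Pds5a, Nipbl, Stag1, Stag2 and Pds5b, where Ctcf and Wapl, Wapl and Smc1a, and Stag1 and Stag2 did not differ beyond counting error. In the T29I library it ran Rad21, Wapl, Ctcf, Stag2, Smc3, Smc1a, Pds5a, Pds5b, Stag1 and Nipbl, where Ctcf and Stag2, and Pds5a and Pds5b, did not differ beyond it. Stag2 thus stood near the end of the first order and in the upper part of the second, and Nipbl came last in the second.

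Ratios between partner genes were taken within each library, since such a ratio does not depend on how the library was scaled. The Smc3 to Smc1a ratio was 1.49 (1.43 to 1.56) in the wild-type library and 1.72 (1.48 to 2.00) in the T29I library. As deposited the balance of the SMC pair was thus close to the same in both. Its log2 difference was 0.13 from TPM + 1, and 0.44 after the length and GC adjustment described below. The Rad21 to Smc1a ratio was 2.87 (2.76 to 2.98) and 12.3 (10.8 to 13.95). For the STAG genes, the Stag2 to Stag1 ratio was 0.981 (0.916 to 1.05) and 4.995 (4.35 to 5.73), a 5.09-fold difference. On the log2(TPM + 1) scale this difference was 2.06, and after the length and GC adjustment described below it was 2.18.

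Against its releasing factor, the Nipbl to Wapl ratio was 0.379 (0.360 to 0.399) in the wild-type library and 0.00856 (0.00519 to 0.0129) in the T29I library, 44.3-fold lower. The log2 difference was -5.47 from TPM itself and -3.55 from TPM + 1, and on the latter scale it was -3.02 after adjustment. Mau2, the partner of Nipbl in the loader, was at 29.8 and 15.5 TPM, and the Nipbl to Mau2 ratio, chosen after its values were seen, was 1.61 (1.505 to 1.72) and 0.0222 (0.0134 to 0.0335). As deposited the loader genes thus went apart, with Mau2 1.92-fold lower and Nipbl 139-fold lower. Their log2 difference from TPM + 1 was -4.28 and, after adjustment, -2.86, with Mau2 itself at an adjusted log2 ratio of 0.46. The Pds5b to Pds5a ratio was 0.523 (0.494 to 0.553) and 0.979 (0.852 to 1.12). The Ctcf to Rad21 ratio was 0.372 (0.357 to 0.387) and 0.197 (0.180 to 0.216).

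**Figure D2:**
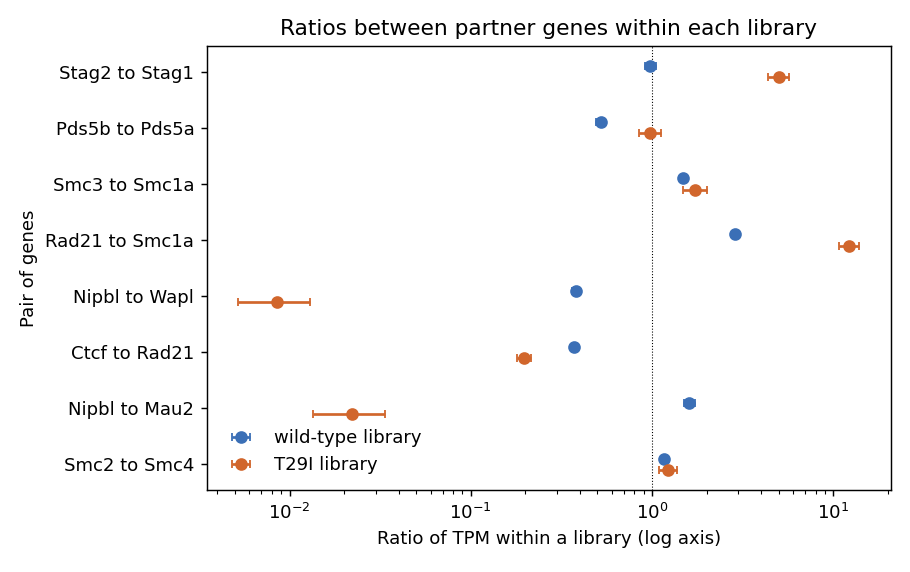
Ratio of the TPM of partner genes within the wild-type library (blue) and the T29I library (orange), on a log axis with 95% counting intervals and a dotted line at equal levels. The SMC pairs of cohesin (Smc3 to Smc1a) and condensin (Smc2 to Smc4) lie close together in the 2 libraries, while Stag2 to Stag1 moves from 0.981 to 4.995 and Nipbl to Wapl from 0.379 to 0.00856.

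Since genes in general were lower in T29I, the members were also set against the typical gene. This shift was the median log2 ratio, -0.90, of the 9375 genes that averaged 5 TPM or more. Relative to it, 8 of the 10 members were at least 2-fold lower, against 22.2% of genes, and 0 at least 2-fold higher, against 26%. The members then ranged from -4.29 (Nipbl) to -0.01 (Stag2), with a median of -1.996. Wapl, at -0.74, was the other member within 2-fold, and Rad21, at -1.06, was just past it.

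Ratios between the libraries followed transcript length and GC content, and the members are at the end of both scales where genes were lower. Of 9100 protein-coding genes averaging 5 TPM or more, the longest 20% had a median log2 ratio of -2.05, the next -1.29 and the shortest 0.26. Nipbl, Pds5a, Pds5b, Stag1, Stag2 and Wapl were in the longest 20% and Ctcf, Rad21, Smc1a and Smc3 in the next. By GC content 7 members were in the lowest 20%, with a median of -1.78, and 3 in the next, with a median of -1.60.

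**Figure D3:**
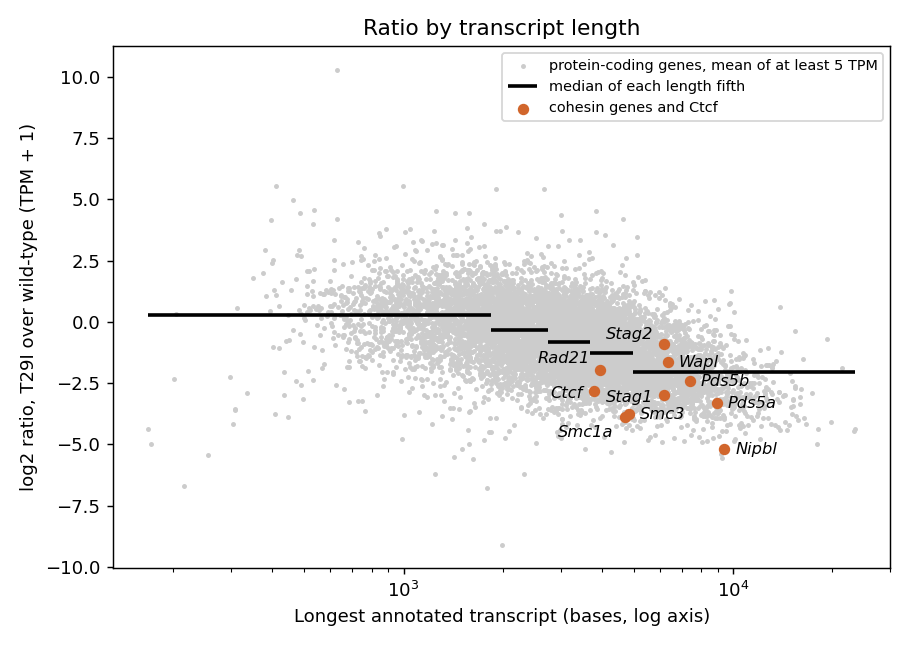
Log2 ratio of T29I over wild-type TPM + 1 against the length of the longest annotated transcript (log axis) for 9100 protein-coding genes (grey), with the median of each length class of 20% of genes (black lines) and the 10 members (orange). The black lines step down from 0.26 to -2.05 with length, and Smc1a, Smc3 and Nipbl lie well below the line of their own class while Stag2 and Wapl lie above it.

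Among genes of the same length class and GC class, each of 20% of genes, the members were spread widely. Nipbl was the lowest of 545 such genes (0% lower), Smc1a was lower than all but 1.19% of 419 and Smc3 lower than all but 2.17% of 460. Ctcf followed, with 12.4% of 419 genes below it, then Pds5a (14.1%) and Stag1 (23.1% of 545). Rad21 and Pds5b were in the middle, with 42.7% and 46.2% of genes below them, Wapl was above it at 76.9% and Stag2 near the top at 92.7%.

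A fit on length and GC content, which took up 44.9% of the log2 ratios' variance, gave an adjusted ratio for each gene. After this adjustment 4 of the 10 members were at least 2-fold lower, against 15.5% of genes, and 1 at least 2-fold higher, against 17.6%. The lower ones were Nipbl at -2.41, Smc1a at -2.32, Smc3 at -1.88 and Ctcf at -1.45, and the higher one was Stag2 at 1.40. Between them lay Stag1 at -0.78, Pds5a at -0.63, Rad21 at -0.40, Pds5b at 0.06 and Wapl at 0.61. An adjusted ratio is relative to genes of like length and GC content. Its sign was not that of the deposited ratio for Stag2, Wapl and Pds5b, though Pds5b was at -0.28 with length alone and -0.59 with GC alone. The adjusted median was -0.70, against 0.04 over all genes. The adjustment rests on the longest annotated transcript and takes out real differences too where they go with length or GC, so what part of the deposited differences comes from either was not tested. For Nipbl the log2(TPM + 1) scale also understates the difference, whose log2 ratio was -6.76 with a pseudocount of 0.1.

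**Figure D4:**
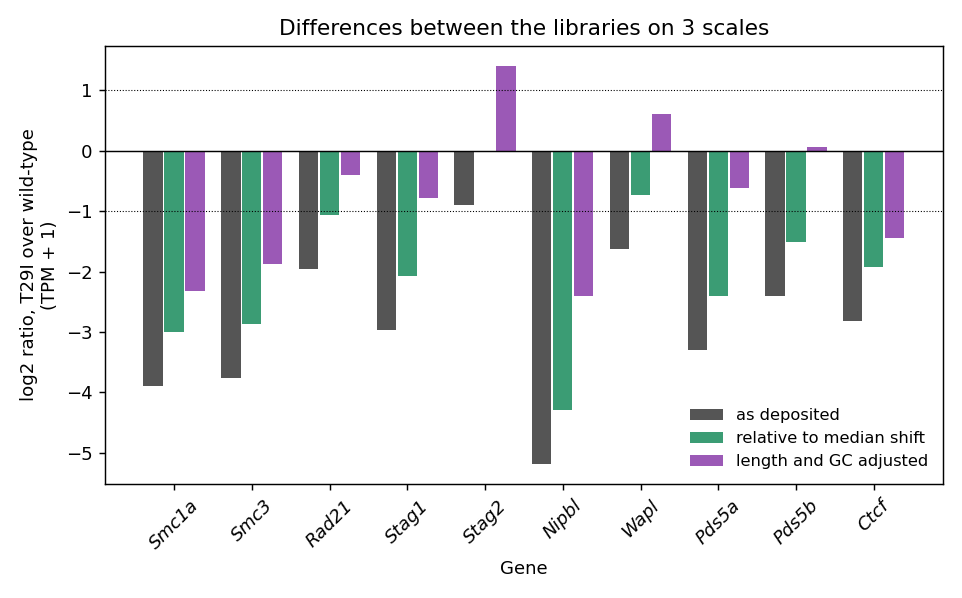
Log2 ratio of T29I over wild-type (TPM + 1) of each of the 10 genes as deposited (grey), relative to the median shift (green) and adjusted for length and GC content (purple), with dotted lines at 2-fold in either direction. Nipbl, Smc1a, Smc3 and Ctcf stay below the lower line on all 3 scales, while Stag2 goes from -0.91 through -0.01 to 1.40.

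Genes that act on cohesin were described from a list of 17 loading, acetylation, protection and cleavage factors, all with a mean of at least 1 TPM. Over all genes the shares past 2-fold were 45.7% lower and 9.97% higher as deposited, 22.2% and 26% relative to the shift, and 15.5% and 17.6% after adjustment. As deposited 9 of the 17 (52.9%) were at least 2-fold lower and 0 higher, with a median log2 ratio of -1.15. Relative to the shift 5 (29.4%) were lower and 2 (11.8%) higher, and after adjustment 2 (11.8%) and 1 (5.88%), with an adjusted median of 0.14. The shares of lower genes were thus near those of all genes. Esco1, an acetyltransferase that locks cohesin on DNA, was at 19.8 and 10.2 TPM, with an adjusted log2 ratio of 1.05. Esco2, which does so in S phase, was at 99.9 and 38.01 TPM, with an adjusted log2 ratio of 0.54 against -1.37 as deposited. The adjusted value of Esco2 rests on a longest annotated transcript of 1 exon. Hdac8, the deacetylase that recycles Smc3, was at 2.87 and 1.47 TPM.

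The protectors and the cleavage machinery did not follow 1 pattern. Sgol1, the shugoshin Sgo1 that shields centromeric cohesin, had the lowest log2 ratio of the list, at 59.9 and 6.95 TPM, with an adjusted log2 ratio of -1.31. Cdca5, which encodes sororin, an antagonist of Wapl, was at 123 and 122 TPM. Espl1, the separase that cuts Rad21, was at 106 and 33.0 TPM, while Pttg1, the securin that holds separase inactive, was at 83.2 and 81.9 TPM. Plk1, a mitotic kinase that helps to strip cohesin from chromosome arms, had the highest log2 ratio, at 247 and 298 TPM. Cdca5 and Pttg1 thus had nearly the same TPM in both libraries, while Wapl and Espl1 were lower in T29I. After adjustment Cdca5 was at 0.33, below Wapl at 0.61, and Pttg1 at 0.77, above Espl1 at -0.35, so the first of these contrasts turned.

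Of 11 genes of replication-coupled cohesion, 4 (36.4%, against 45.7%) were at least 2-fold lower as deposited and 0 higher (median -0.64). There were 3 lower (27.3%) and 1 higher (9.09%) relative to the shift, against 22.2% and 26%, and as many after adjustment (median 0.30), against 15.5% and 17.6%. The ends by log2 ratio were Clspn, a fork and checkpoint protein, at 30.0 and 2.80 TPM and Chtf8, a subunit of an alternative clamp loader, at 125 and 154 TPM. Germ cell counterparts of the members were low. Only 2 of 6 had a mean of at least 1 TPM: Stag3, the meiotic STAG gene, at 15.7 and 1.61 TPM, and Rec8, the meiotic kleisin, at 11.1 and 17.3 TPM. Rad21 was thus well above Rec8 in both libraries. Smc1b was at 1.14 and 0.0375 TPM, from 24 reads and 1 read, and Ctcfl, the germ cell paralogue of Ctcf, at 0.299 and 0.565 TPM, from 5 and 12 reads. Rad21l was listed at 0 in both libraries.

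Condensin, another loop-extruding SMC complex, which compacts mitotic chromosomes, is the closest relative. Of its 8 genes, 6 (75%, against 45.7%) were at least 2-fold lower as deposited and 1 (12.5%, against 9.97%) higher, with a median of -2.48. Relative to the shift 5 were lower (62.5%, against 22.2%), after adjustment 3 (37.5%, against 15.5%; median -0.52), and 1 was higher in each (12.5%, against 26% and 17.6%). Its SMC pair was at 143 and 18.5 TPM (Smc2) and at 122 and 15.2 TPM (Smc4), so the Smc2 to Smc4 ratio was 1.17 (1.12 to 1.23) and 1.22 (1.09 to 1.37). The Smc3 to Smc2 ratio, chosen after its values were seen, was 1.26 (1.21 to 1.32) in the wild-type library and 0.669 (0.592 to 0.755) in the T29I library. Cohesin's Smc3 was thus above condensin's Smc2 in the first library and below it in the second. By log2 ratio Ncapd3 was the lowest of the list, at 45.2 and 4.91 TPM, and Ncaph2, in the same condensin II complex, the highest, at 127 and 260 TPM.

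In the Smc5-Smc6 complex with Smchd1, 9 of 10 genes had a mean of at least 1 TPM. Of these 6 (66.7%, against 45.7%) were at least 2-fold lower as deposited and 0 higher (median -2.04). Relative to the shift 5 were lower (55.6%, against 22.2%) and 2 higher (22.2%, against 26%). After adjustment 1 was lower (11.1%, against 15.5%) and 2 higher (22.2%, against 17.6%), with a median of -0.13. By log2 ratio Fam178a, which encodes the Slf2 protein that brings the complex to DNA damage, was the lowest, at 45.4 and 2.00 TPM, and Nsmce1, a small non-SMC subunit, the highest, at 68.9 and 99.0 TPM. Among 14 architectural and looping factors, 10 (71.4%, against 45.7%) were at least 2-fold lower as deposited and 0 higher (median -2.07). Relative to the shift 8 were lower (57.1%, against 22.2%), after adjustment 3 (21.4%, against 15.5%; median -0.37), and 1 was higher in each (7.14%, against 26% and 17.6%). By log2 ratio Adnp, a chromatin factor known to compete with CTCF at some sites, was the lowest of them, at 31.3 and 1.08 TPM, with an adjusted log2 ratio of -2.41. Maz, a zinc finger factor found next to CTCF, was the highest, at 215 and 431 TPM, with an adjusted log2 ratio of -0.02. By TPM itself Maz was 2.003-fold higher, but its log2(TPM + 1) ratio of 0.999 fell just short of the 2-fold rule.

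**Figure D5:**
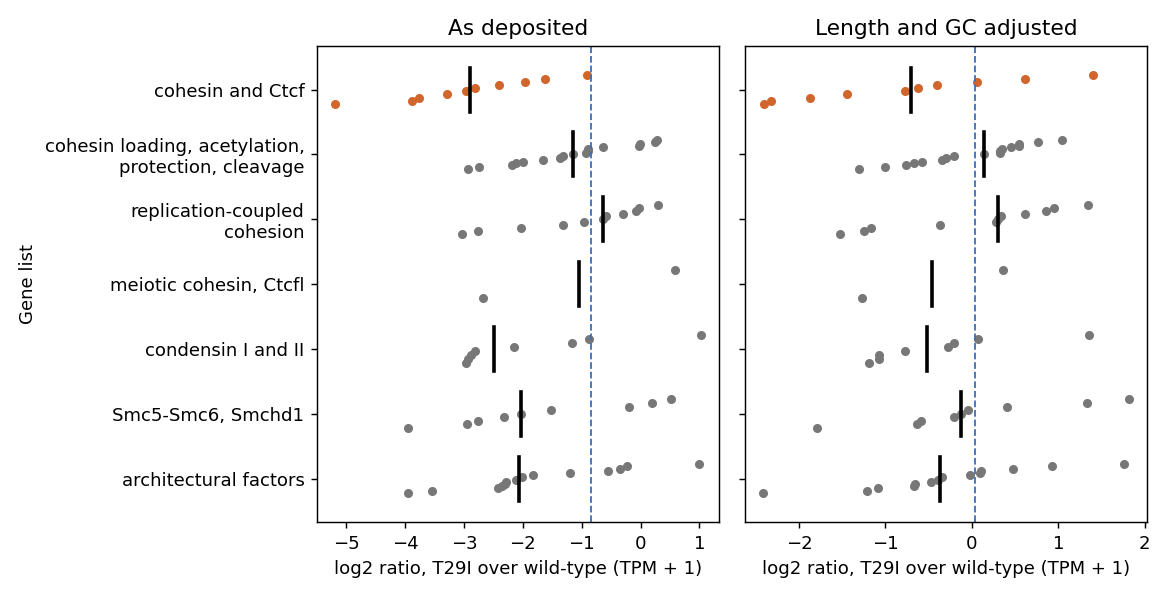
Log2 ratio of T29I over wild-type (TPM + 1) of each gene with a mean of at least 1 TPM (points) in the 10 members (orange) and 6 related lists (grey), as deposited (left) and adjusted for length and GC content (right). Black bars are list medians and the dashed blue line is the median over all genes. The members' median is the lowest as deposited, at -2.89, with condensin next at -2.48, and on the right every list's points fall on either side of the dashed line.

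The libraries differed in more than these genes. All 10 ES cell markers were above 0 in both, but 9 of them were lower in T29I, against 71.5% of all genes averaging 1 TPM or more. At least 2-fold lower were 7 (70%, against 45.7%), and 1 was higher (10%, against 9.97%), with a median log2 ratio of -1.44. Relative to the median shift 3 were lower (30%, against 22.2%) and 1 higher (10%, against 26%). After adjustment 4 were lower (40%, against 15.5%) and 0 higher (against 17.6%). Zfp42 was 23.3-fold, Nanog 5.45-fold and Esrrb 4.04-fold lower, but Sox2 only 1.59-fold and Pou5f1 1.18-fold, while Utf1 went from 972 to 2459 TPM. The summed level of the 10 ES cell markers was 6481 and 5110 TPM with Utf1, and 5509 and 2650 TPM without it. Of 10 trophoblast markers 9 were higher in T29I, among them Cdx2 from 3 and 6 reads and Elf5 from 3 and 4 reads. Of the 7 averaging 1 TPM or more, 6 (85.7%, against 9.97% of all genes) were at least 2-fold higher and 0 lower. The 10 summed to 121 and 928 TPM, or 77.4 and 186 TPM without the keratin genes Krt8 and Krt18, with Plac1 at 0 in the wild-type library. Fibroblast feeder markers summed to 8.30 and 20.3 TPM, of which Thy1 alone made up 4.57 and 17.6, and without it to 3.73 and 2.73 TPM, with Lum at 0 in both. Of the primitive endoderm markers 6 were lower and 4 higher in T29I. Only Sox7 and the laminin genes Lama1 and Lamb1 averaged 1 TPM or more. All 3 passed the 2-fold rule downward as deposited (100%, against 45.7%). With the median shift taken off, 2 of them did (66.7%, against 22.2%), and 2 after adjustment (66.7%, against 15.5%). The 4 higher markers had few reads: Gata4 10 and 17, Dab2 28 and 55, Sox17 about 1 and 5, and Afp 0 and 1. The list summed to 68.1 and 11.1 TPM, or 8.66 and 2.62 TPM without Lama1 and Lamb1. The part of these markers in the members' differences was not tested. Prss1 itself was listed at 0 in both libraries, so its level does not check the labels.

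Genes that share sequence or position with the members were also searched for. No other gene's transcript aligned to a member's longest transcript over at least 300 bases at 95% identity or more. In the annotation 18 genes overlap 6 of the members, and 16 of them were listed at 0 in both libraries. The others lie opposite Ctcf: Agrp at 0.951 and 2.39 TPM and Gm5914 at 2.64 and 0.297 TPM.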

How the data were processed

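RNA was measured in 1 wild-type and 1 T29I library of v6.5 mouse ES cells. Per the labels' protocols, Isogen served for extraction, and the library kit was Illumina's TruSeq Stranded Total RNA, whose Ribo-Zero step depletes ribosomal RNA. The authors deposited TPM values per gene, each column summing to 1000000, with aligner, counting tool and build not given in the sources used here. Columns were matched through the sample descriptions.

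Of 51826 identifiers, 51633 matched GENCODE M21 (GRCm38). TPM times merged exon length was a whole multiple of the value of 1 read, within 0.05, for 86.3% (wild-type) and 83.8% (T29I) of values under 200 reads. This gave an estimated 16910002 and 15281662 reads. Reads came out whole in both libraries for 6 of the 10 members (not Rad21, Stag1, Nipbl and Pds5a), whose reads and intervals are approximate. Ratios of deposited TPM between libraries do not use these lengths, but their counting intervals and the ratios of reads per library total do. The adjusted ratios use the length of the longest transcript.

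Ratios are log2(TPM + 1), T29I minus wild-type, for genes averaging 1 TPM or more, and 2-fold is the size rule. The adjustment is what remains after a fit to log2 length and GC content of the longest transcript, with squares and the product of both, over 9100 protein-coding genes averaging 5 TPM or more. It was run on simulated data too, but their trend had a form that the fit contains, so this does not check the members' adjusted values. Members, lists and the adjustment were chosen with earlier results of these data known. From each related list the highest and lowest gene averaging 5 TPM or more and 14 direct partners or counterparts are named. Other settings tried were pseudocounts, filters, scalings, the fold and the parts of the adjustment. Tools were Python 3.11.15, pandas 2.3.3, scipy 1.17.1 and blastn 2.17.0.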

Additional observations from a re-analysis of the deposited data

How the results depend on the processing

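The count of members at least 2-fold lower is given with the share of all genes lower by the same setting. It was 9 with a pseudocount of 0.1 or none (49.2% each), a filter at 5 TPM (47.1%) or no filter (12.1%). It was also 9 without the 20 most abundant genes of either library (41.8%) and with reads per library total (35.6%). Relative to the median shift it was 8 (22.2%), with a 1.5-fold rule 10 (56.7%) and with the GC adjustment alone 6 (18.0%). It was 4 with the length and GC adjustment (4 with merged exon length too), where 15.5% (16.6%) of all genes were lower, and 5 with the length adjustment alone, where 19.97% were, against 45.7% as deposited. The count of members at least 2-fold higher was 1 with the length and GC adjustment and 1 with the GC adjustment alone, where 17.6% and 19.9% of all genes were higher, against 0. The members' median log2 ratio was -0.70 with both adjustments, -1.02 with length alone and -1.32 with GC alone. With reads per library total, with no length, in place of TPM it was -2.54. The sign of the log2 ratio turned for Wapl (0.61 with both adjustments, 0.21 with length, 0.15 with GC, 0.22 with merged exon length). From a value within 2-fold it turned for Stag2 (1.40 with both, 0.89 with length, 1.06 with GC, 1.26 with merged exon length). For Pds5b it turned with both only (0.0645), and the value was -0.28 with length, -0.59 with GC and -0.16 with merged exon length. The sign also turned for Esco2 (0.54 with both, 0.65 with GC), Espl1 (0.27 with length) and Smc1b (0.76 with both, 0.0666 with length, 0.83 with GC). The adjusted values of Esco2 rest on a longest transcript of 1 exon, and Smc1b on 24 reads and 1 read. Of genes within 2-fold as deposited, the sign turned with both adjustments for Esco1 (1.05), Mau2 (0.46), Hdac8 (0.55), Maz (-0.02), Cdca5 (0.33) and Pttg1 (0.77). In all, 11 of 33 named genes turned with both adjustments, 8 with length, 9 with GC and 3 relative to the median shift. The cause was not tested.

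For the related lists, settings chosen after seeing the data gave these counts. They are the lower and then the higher genes, of those averaging 1 TPM or more. Relative to the median shift, where 22.2% of all genes were lower and 26% higher, cohesin-acting factors had 5 and 2 of 17. Replication-coupled cohesion had 3 and 1 of 11, meiotic cohesin 1 and 1 of 2, and condensin 5 and 1 of 8. The Smc5-Smc6 list had 5 and 2 of 9, and architectural factors 8 and 1 of 14. After the length and GC adjustment, where 15.5% were lower and 17.6% higher, cohesin-acting factors had 2 and 1 of 17. Replication-coupled cohesion then had 3 and 1 of 11, meiotic cohesin 1 and 0 of 2, and condensin 3 and 1 of 8. For the Smc5-Smc6 list it was 1 and 2 of 9, and for architectural factors 3 and 1 of 14. No paired analysis was possible because each group has 1 library. Depth limits Nipbl most, at an estimated 21 reads in the T29I library.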
